A study of Mus musculus with 6 samples.

Results

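Expanded tumor clones are groups of CD8 T cells that carry the same pair of T cell receptor (TCR) chains and were found many times in one tumor library. A tumor barcode was taken when it held a contig of a TCRα chain (TRA) and one of a TCRβ chain (TRB). A clone was the CDR3 nucleotide sequence of the TRA and of the TRB contig with most UMIs (unique molecular identifiers, by which copies of 1 RNA molecule are counted once), and clones of at least 10 barcodes were kept in each library. This gave 34 clones with 5986 barcodes in the CD8-IFNγRKO tumor library and 35 clones with 4362 barcodes in the control tumor library. They came from 12214 and 11369 tumor barcodes with RNA counts, of which 6890 and 4980 had both chains. The members were chosen by clone size, a measured value, so the sizes are described here and support nothing. At the limit, 1 clone in each library had 10 barcodes, and the next below it had 9 barcodes, 2 clones in CD8-IFNγRKO and 3 in control.

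Mice of both genotypes were engrafted with B16-OVA, a mouse melanoma line that expresses ovalbumin, and tumors were taken on day 12 per the series' design text. The CD8-IFNγRKO mice were CD8-Cre, Rosa26Tomato and IFNgR1flox/flox. The control mice were CD8-Cre and Rosa26Tomato with an intact receptor gene, so that Cre and the Tomato reporter were present in both. The Cre is driven by *Cd8a* regulatory sequence, and only cells in which it had acted (CD45+ CD3+ CD8+ Tomato+) were sorted. Cells of 3 mice were pooled into 1 library per genotype, the age and sex of these mice are not given in the labels, and no value in the files ties a clone to a mouse. Each genotype was therefore 1 sample. No test between genotypes was run, clones and cells were not counted as replicates, and a difference between the genotypes cannot be told apart from one between the mice, the tumors or the libraries.

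Each TCR chain is joined at random from V and J segments (and D segments for the β chain) while a T cell develops, with bases removed and added at the joints. Its CDR3, the loop that reads the antigen, thereby becomes a mark that all daughters of one T cell keep. Clones that grow in a tumor are often enriched for cells that have met tumor antigen there. Interferon γ (IFNγ) is read through a receptor of a pair of chains, IFNGR1, which binds the ligand, and IFNGR2, whose signal passes through the kinases JAK1 and JAK2 to genes such as *Irf1*, the guanylate-binding proteins and the MHC class I pathway.

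The CDR3 sequences below are those of the 2 largest clones of each library, which together hold much of the cells, and of the clones that shared a chain with another expanded clone, because they show where 1 clone was counted as 2. Clones are numbered by size, K1 to K34 in CD8-IFNγRKO and C1 to C35 in control. Sequences run 5′ to 3′ as the authors' contigs give them. Capitals mark the bases between the longest start shared with at least 20% of the distinct CDR3s of the same V gene in these libraries and the longest end shared with at least 20% of those of the same J gene, which is where the joint lies. Where a V gene had under 10 distinct CDR3s, as for the alpha chain of C2, no start was taken off and the V bases are in capitals too.
K1 alpha: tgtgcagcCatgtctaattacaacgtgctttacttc
K1 beta: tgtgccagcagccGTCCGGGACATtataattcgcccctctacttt
K2 alpha: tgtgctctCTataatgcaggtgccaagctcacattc
K2 beta: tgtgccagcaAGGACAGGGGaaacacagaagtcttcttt
C1 alpha: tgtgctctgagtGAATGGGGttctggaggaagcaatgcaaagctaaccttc
C1 beta: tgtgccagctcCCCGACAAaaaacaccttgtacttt
C2 alpha: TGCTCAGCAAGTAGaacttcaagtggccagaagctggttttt
C2 beta: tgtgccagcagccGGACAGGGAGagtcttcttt
K3 alpha: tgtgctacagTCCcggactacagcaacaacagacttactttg
K4 alpha: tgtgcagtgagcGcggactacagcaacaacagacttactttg
K3, K4 and K9 beta: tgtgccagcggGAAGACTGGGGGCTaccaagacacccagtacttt
K9 and K16 alpha: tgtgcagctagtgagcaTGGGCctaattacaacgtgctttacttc
K14 and K16 beta: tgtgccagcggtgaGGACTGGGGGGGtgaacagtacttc
C14 alpha: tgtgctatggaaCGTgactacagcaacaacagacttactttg
C15 alpha: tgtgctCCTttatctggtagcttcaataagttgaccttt
C14 and C15 beta: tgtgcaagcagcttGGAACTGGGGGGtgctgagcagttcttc

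K1 used TRAV7D-2, TRAJ21, TRBV14 and TRBJ1-6, and K2 used TRAV12D-3, TRAJ39, TRBV13-3 and TRBJ1-1. C1 used TRAV12-3, TRAJ42, TRBV12-1 and TRBJ2-4, and C2 used TRAV5-1, TRAJ16, TRBV14 and TRBJ1-1. K1 and C2 thus had the same TRBV gene with different joints. The capitals are 1 base long in the α chain and 11 in the β chain of K1, and 2 and 10 bases long in those of K2. In both clones the α joint was short. The capitals of a β chain can also hold bases of the D segment, which the marking does not take off. Part of the capitals of the K2 β chain also stands in those of the C2 β chain. The length of the capitals is therefore no measure of how much sequence is particular to a clone. No pair of chains, no α chain and no β chain of an expanded clone was found among the expanded clones of the other genotype. The 812 CD8-IFNγRKO and 470 control clones of any size also had no pair of chains in common.

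Segment use was spread over many genes. The 34 CD8-IFNγRKO clones used 13 TRBV and 27 TRAV genes and the 35 control clones 13 and 26, with names as the files give them. TRAJ7 was the most used Jα segment of both libraries, in 6 of 34 CD8-IFNγRKO and 13 of 35 control clones. TRBJ2-7 was in 15 of 34 CD8-IFNγRKO and 4 of 35 control clones, and TRBJ2-5 in 3 of 34 and 7 of 35. These counts repeat some β chains. K3, K4 and K9, the TRBJ2-5 clones of CD8-IFNγRKO, all had the same β chain. K14 and K16 shared a TRBJ2-7 β chain, and so did K25 and K27. Among all distinct CDR3s of these libraries, 387 used TRBJ2-7 and 197 used TRBJ2-5. For the α chain, 74 used TRAJ7 and 98 used TRAJ22, which was in 1 of 35 expanded control clones. Both libraries are pooled in these numbers and the expanded clones are included, so they give no share per genotype. The median CDR3 length was 42 bases for both chains in the expanded clones of both libraries, and also 42 bases in the clones under 10 barcodes.

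Some members were parts of 1 clone. The capitals of K3 and K4 lie in different α chains on 1 β chain, and 295 of the 341 barcodes of K3 and 255 of the 279 of K4 carried both α chains. The rule placed each of these barcodes by the α chain with more UMIs, at a median of 12 UMIs against 9 in K3. The same held for K7 and K19, where 222 of 268 barcodes carried both α chains, for K13 and K18 with 157 of 179, for K25 and K27 with 30 of 41, and for C14 and C15 with 54 of 76. K9 had the β chain of K3 and K4 with another α chain, which no barcode of K3 or K4 carried. All 94 barcodes of K16 held the α chain of K9 and 2 β chains, that of K14 at a median of 19 UMIs and that of K3 at a median of 3. Of the 107 barcodes of K14, 19 held the β chain of K3, at a median of 2 UMIs, and none held the α chain of K9. The 34 CD8-IFNγRKO clones thus had 28 β chains and the 35 control clones 34. Barcodes with 2 α contigs made up 16.2% of the expanded CD8-IFNγRKO and 1.95% of the expanded control barcodes.

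Expanded clones held 86.9% (exact 95% interval 86.1 to 87.7%) of the paired CD8-IFNγRKO barcodes and 87.6% (86.6 to 88.5%) of the paired control barcodes. These intervals, and those below, cover counting error only, not the spread between mice. The largest clone was a similar part of both libraries, K1 with 1624 barcodes, 23.6% of the paired barcodes, and C1 with 1188 barcodes, 23.9%. Below the top, the sizes in barcodes diverged. The median clone had 72.5 barcodes in CD8-IFNγRKO and 32 in control, and 15 against 6 clones had 100 barcodes or more. These sizes are not scaled to the 6890 and 4980 paired barcodes of the libraries, so part of the gap lies in the larger CD8-IFNγRKO total. The 3 largest clones made up 54.0% of the expanded CD8-IFNγRKO barcodes and 66.6% of the expanded control barcodes. A mean over cells would therefore be mostly a mean over 3 clones in either library, which is why each clone was summed on its own.

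**Figure D1:**
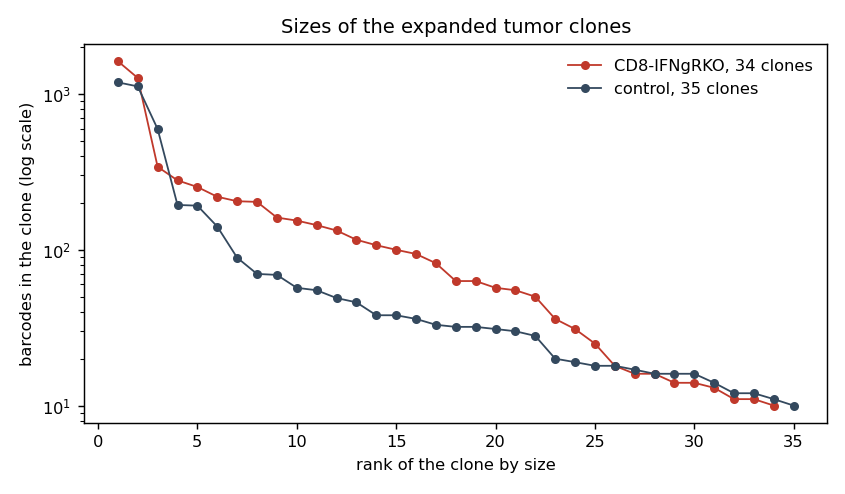
Barcodes in each expanded clone (log scale) against the rank of the clone by size, with red points for the 34 CD8-IFNγRKO clones and dark points for the 35 control clones. The largest clones stand at 1624 and 1188 barcodes, and over most of the ranks the CD8-IFNγRKO clones lie above the control clones of the same rank.

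For expression, 5457 CD8-IFNγRKO and 3919 control cells of these clones passed the cell filter of the study's methods, 91.2% and 89.8%, with 7 to 1463 and 9 to 1104 cells per clone. The UMIs of a clone's cells were summed and scaled to UMIs per 1000000 UMIs of the clone (CPM), and the log2 ratio of the mean of the clones' CPM, CD8-IFNγRKO over control with 1 CPM added to both, was the measure of difference. A lower CPM of a clone does not tell fewer cells with a transcript from less transcript per cell. Beside it stands the share of the 1190 pairs of 1 CD8-IFNγRKO and 1 control clone in which the former was higher. Tied pairs, such as those with both clones at 0, were split evenly between the genotypes. A share of 50% means no order, and values near 0 or 100% mean that the clones hardly overlapped. Depth differed between the genotypes. The clones' median of UMIs per cell ran from 2251 to 14776.5 in CD8-IFNγRKO (median of the clones 9709) and from 2093 to 13831 in control (median 5684), and it was under 5000 in 5 of 34 and 13 of 35 clones. Values are therefore also given for clones with a median of 5000 to 10000 UMIs per cell, 12 in CD8-IFNγRKO and 21 in control. They stand beside the genes that moved by over 1.5 times there and beside some lists. This setting was chosen after the data were seen, and it narrows the depth difference without removing it. Its CD8-IFNγRKO clones had 7138.5 (K6) to 9376 (K32) UMIs per cell, and its control clones 5161 (C26) to 9335 (C22). All of its control clones but C17, C22 and C30 lay below K6.

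The clones carried the transcripts of the sorted cell type. The summed CPM of *Cd2*, *Cd3d*, *Cd3e*, *Cd3g*, *Cd8a* and *Cd8b1* ranged from 5058 to 8821 in the CD8-IFNγRKO and from 6509 to 10953 in the control clones. The cell filter asked for *Cd2*, *Cd8a* and *Cd8b1* in every cell, so their presence was set by rule and is no check. The level of *Cd3e*, outside the filter, is given below. Markers of B cells were at most 177 CPM in any clone, of melanoma cells at most 57.6, of NK cells at most 291, of CD4 and regulatory T cells at most 139 and of red blood cells and stroma at most 6.31. The 18 macrophage and dendritic cell markers summed to at most 3269 CPM in CD8-IFNγRKO clones (median 204) and at most 2122 in control clones (median 250.1). The highest values were those of K28 and C14, and in each of them 1 barcode, with 433 and 196 UMIs of these markers, held nearly all. Single barcodes of C2 and K2 held 621 and 329 such UMIs. Without every barcode of 5 or more UMIs of these markers other than *Apoe* and *Cst3*, a setting added after the data were seen, 25 genes were at least 2-fold higher and 25 lower, against the 26 and 24 described below. Of the expanded barcodes, 92 of 5986 and 64 of 4362 had a barcode that also occurs in the other tumor library. With the control and the CD8-IFNγRKO lymph node library the counts were similar, 90 and 92 of 5986, and 85 and 68 of 4362.

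The targeted gene was read out first. *Ifngr1* (ENSMUSG00000020009, chromosome 10, 19591949 to 19610229 in GRCm38.p6, the assembly of the RefSeq table used) encodes the ligand-binding chain. It ranged from 188 to 716 CPM in the 34 CD8-IFNγRKO clones, with a median of 235, and from 415 to 1408 CPM in the 35 control clones, with a median of 817. Of the CD8-IFNγRKO clones, 30 lay below every control clone, and 4 (K14, K29, K30 and K31) lay above the lowest control clone, C16 at 415 CPM. The log2 ratio of the clone means was -1.51, and 1.93% of the pairs had the CD8-IFNγRKO clone higher. Over the summed cells, *Ifngr1* was at 228 CPM (224 to 232) and 734 CPM (724 to 744), a log2 ratio of -1.68. In no CD8-IFNγRKO clone was *Ifngr1* at 0, and 83.7% of the expanded CD8-IFNγRKO and 95.9% of the expanded control cells had a UMI of it. Reads from outside the floxed part are counted from a deleted allele too, so the level checks the labels but does not show in how many cells of a clone the receptor was lost. *Ifngr2* had 5 UMIs in the expanded cells of each library, out of 62507200 and 29282900 UMIs, too few for a ratio.

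The *Ifngr1* level of a clone went with its depth. K31 at 716 CPM, K30 at 687, K14 at 448, K29 at 441 and K8 at 412 were the 5 highest CD8-IFNγRKO clones and also the 5 with the fewest UMIs per cell. In the control library, C16 had the most UMIs per cell and the lowest level. Spearman's rho between *Ifngr1* and the median of UMIs per cell was -0.69 over the 34 CD8-IFNγRKO clones and -0.56 over the 35 control clones, a description only, since clones of one library share library and mice. K30 and K31 rest on 12 and 11 *Ifngr1* UMIs, with intervals of 355 to 1201 and 357 to 1281 CPM. Within the range of 5000 to 10000 UMIs per cell, the log2 ratio was -1.45.

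**Figure D2:**
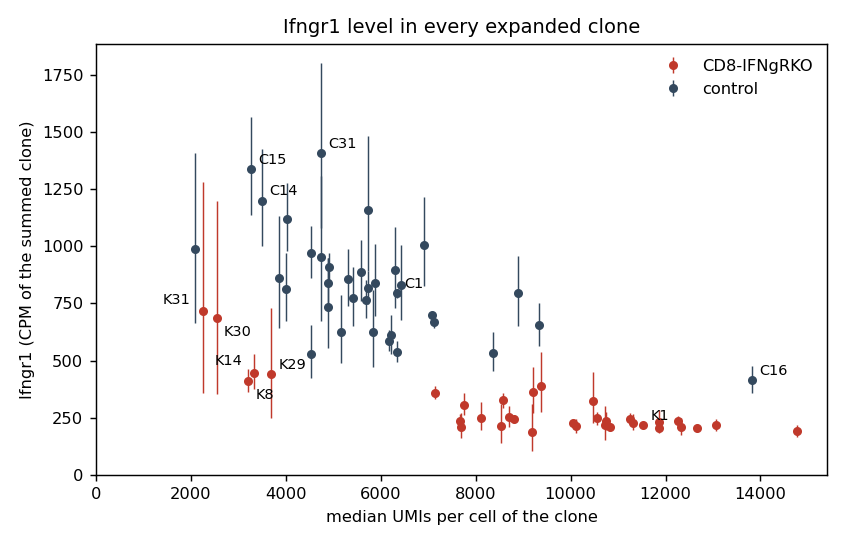
Ifngr1 level (CPM of the summed clone, bars for exact 95% Poisson intervals) against the median of UMIs per cell in each of the 34 CD8-IFNγRKO clones (red) and 35 control clones (dark). The CD8-IFNγRKO clones sit between 188 and 716 CPM and the control clones between 415 and 1408, and in both the level is higher toward the shallow end.

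Among 3154 genes with a mean clone CPM of at least 50 in either library and at least 100 UMIs, TCR segments left out, 26 were at least 2-fold higher in the CD8-IFNγRKO clones (0.824%) and 24 at least 2-fold lower (0.761%). The median log2 ratio of all 3154 was 0.02, with quartiles at -0.18 and 0.23. A CD8-IFNγRKO clone was higher in at least 90% of the pairs for 18 genes (0.571%) and in at most 10% for 31 genes (0.983%). In no gene (0%) were all clones of one genotype above all clones of the other. The 2 readings met in part, since 4 of the 24 lower and 6 of the 26 higher genes were also that one-sided. The higher genes included heat shock and DNA replication genes, the chemokine *Xcl1* and the sterol synthesis gene *Fdps*. The lower genes included *Csf1*, *Ifngr1* itself and the granzymes *Gzmd*, *Gzme* and *Gzmf* of one gene cluster, while *Gzmc* of that cluster was among the higher genes.

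**Figure D3:**
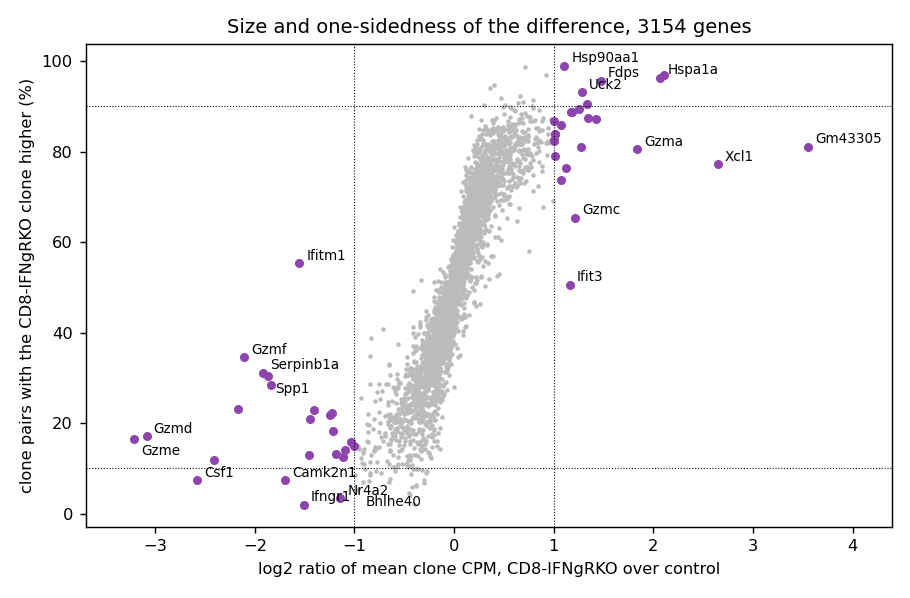
Share of clone pairs in which the CD8-IFNγRKO clone is higher (%) against the log2 ratio of the mean clone CPM for 3154 genes (grey), with the 50 genes past a 2-fold ratio in purple and dotted lines at ratios of -1 and 1 and shares of 10 and 90%. Ifngr1, at 1.93% of pairs, and Hsp90aa1, at 98.9%, are at the ends of the vertical axis, while Ifitm1 and Ifit3 pass 2-fold near 50% of pairs.

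Of the lowest genes, *Csf1* was lower across nearly all clones. *Csf1*, the growth factor of macrophages, ranged from 0 to 118 CPM in CD8-IFNγRKO clones with a median of 22.3 and from 0 to 693 CPM in control clones with a median of 203. No CD8-IFNγRKO clone reached the control median, the log2 ratio was -2.58, and 7.35% of the pairs went the other way. *Camk2n1*, an inhibitor of the calcium-dependent kinase CaMKII, was at 0 to 260.4 CPM (median 30.7) against 46.1 to 283 CPM (median 135), and 24 of 34 CD8-IFNγRKO clones lay below every control clone. *Serpine2*, which encodes a serine protease inhibitor, was at medians of 37.2 and 236 CPM with a log2 ratio of -2.41.

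The granzymes D, E and F, serine proteases of the killing granules whose genes lie side by side, were uneven between clones of the same genotype. *Gzme* ranged from 0 to 194 CPM in CD8-IFNγRKO clones (median 0.968), with 17 of 34 clones at 0, and from 0 to 959 CPM in control clones (median 81.0), with 4 of 35 at 0. A level of 0 means less in a small clone, since 3 UMIs are 195 CPM in K31 and 0.167 CPM in K1. The log2 ratio of *Gzme* was -3.21, the lowest among the 3154 genes. *Gzmd* followed at -3.09, with medians of 0 and 46.7 CPM. Among clones of 5000 to 10000 UMIs the ratios of *Gzme* and *Gzmd* were -3.89 and -4.71, and with the largest clone of each β chain, which leaves out K19, -3.96 and -4.01. The CD8-IFNγRKO clone K19 stood out with 194 CPM of *Gzme* and 292 CPM of *Gzmd*, while K7, whose barcodes carry the same β chain and mostly the same 2 α chains, had 4.95 CPM of *Gzme*. *Gzmf* had a log2 ratio of -2.11 over clone means but -1.17 over summed cells. C33, a clone of 12 barcodes, held 5736 CPM of it, and without C33 the ratio was -1.60. K1 at 466 and K2 at 389 CPM were the 2 highest CD8-IFNγRKO clones for *Gzmf*. *Gzmc*, their neighbour and named after its value was seen, was the other way round at 1.22, with K10 at 1087 CPM and C6 at 1064 CPM nearly equal at the top and 65.4% of the pairs higher in CD8-IFNγRKO.

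Other low ratios were carried by a few control clones. *Serpinb1a*, a granule protease inhibitor, was at 774 CPM in C15 and 637 CPM in C14, while the next control clone had 84.1 CPM and the highest CD8-IFNγRKO clone 65.1. C14 and C15 are the 2 α chains of 1 clone. The log2 ratio of -1.91 was -1.22 among clones of 5000 to 10000 UMIs and -0.57 among all clones of at least 5000, which leave both out. *Spp1*, which encodes osteopontin, reached 3220.2 CPM in C21 and 1728 in C6, with medians of 25.2 and 110.4 CPM. *Ifitm1*, an interferon-induced membrane protein gene, had a log2 ratio of -1.55, yet it was at 0 in 20 of 35 control clones. The CD8-IFNγRKO clone was higher in 55.3% of the pairs, with ties at 0 split evenly. C33 at 701, C3 at 498 and C25 at 447 CPM carried it, and over clone medians its ratio was reversed, at 1.94. That value rests on medians of 2.84 and 0 CPM, less than 1 UMI in a small clone. *Anxa1*, the gene of annexin A1, and *Nrn1*, the gene of neuritin, had ratios of -1.84 and -2.17 from mean levels of 15.7 against 58.9 and 14.1 against 66.7 CPM. For *Nrn1* the ratio over summed cells was -1.32, and for *Anxa1* it was -1.21 among clones of 5000 to 10000 UMIs.

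Among the highest genes, *Gm43305*, a predicted gene, had the largest log2 ratio, 3.55, with at most 184 CPM in a CD8-IFNγRKO clone (median 49.7) and at most 73.2 CPM in a control clone, and 26 of 35 control clones were at 0. *Xcl1*, the chemokine that draws cross-presenting dendritic cells, ranged from 0 to 1158 CPM (median 62.0) against 0 to 345 CPM (median 3.89). K26 at 1158, K9 at 1043 and K25 at 874 CPM were the highest clones, whereas C11 led the control clones with 345 CPM. The log2 ratio of *Xcl1* was 2.64, and 1.98 over summed cells. *Gzma*, a granzyme outside the cluster above, was at medians of 157 and 12.9 CPM with a log2 ratio of 1.84. Its size depended on few clones, since K29 held 1530.3 CPM from 52 UMIs and C21 719.8 CPM, and it was 0.74 with clones of at least 5 barcodes and 3.64 among clones of 5000 to 10000 UMIs.

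*Srm* (spermidine synthase), *Uck2* (a uridine and cytidine kinase), *Hmgn1* (a chromatin protein) and *Myc* (a transcription factor of growth) were higher by log2 ratios of 1.42, 1.28, 1.34 and 1.26. *Uck2* was the most even of them, at 13.9 to 91.8 CPM against 0 to 57.0 CPM, with 21 of 34 CD8-IFNγRKO clones above every control clone. The histone genes *Hist1h4i* and *Hist1h2ab*, which are copied into RNA mainly in S phase, had ratios of 1.33 and 1.27. Of the 26 higher genes, 9 did not reach 2-fold when a single clone was left out, and of the 24 lower genes 3 did not. Among the higher ones *Ifit3* moved from 1.16 to 0.66 without K29.

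**Figure D4:**
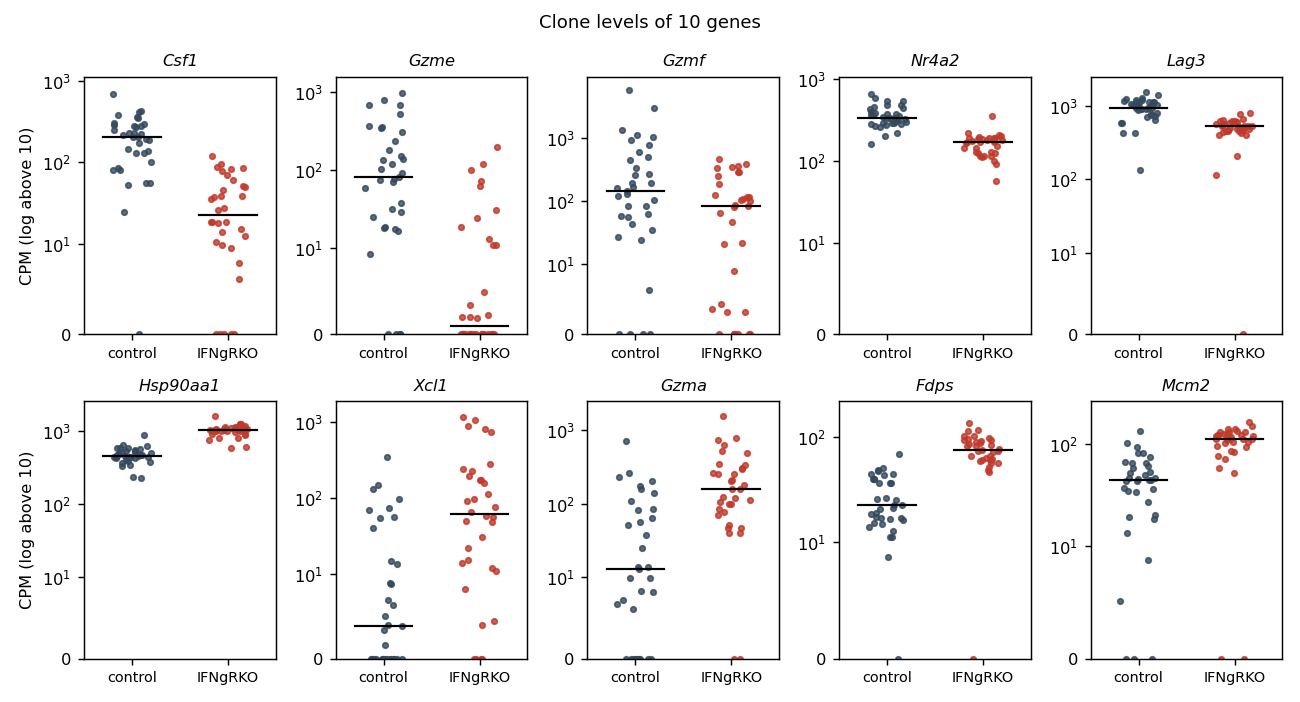
Level of 10 genes in every expanded clone (CPM, axis linear up to 10 and logarithmic above), control clones in dark and CD8-IFNγRKO clones in red, with black lines at the medians. Hsp90aa1 and Nr4a2 form narrow bands that overlap in part between genotypes, while Gzme, Gzmf, Xcl1 and Gzma spread over 2 or more powers of 10 within each genotype.

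The gene lists were chosen with earlier results of these data known, so they give no independent support. They were described by how many of their genes passed 2-fold and by their summed CPM in each clone. A gene was measured when its mean clone CPM was at least 20 in either library with at least 100 UMIs. Over all 5919 such genes, 1.12% were at least 2-fold higher, 0.997% at least 2-fold lower and 53.6% above 0, with a median log2 ratio of 0.03.

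Heat shock genes, which encode chaperones that keep proteins folded, were the list that separated the genotypes most. Of 19 genes measured, 4 were at least 2-fold higher and 0 lower, and the median log2 ratio was 0.63. The summed level was 11549 to 19206 CPM in CD8-IFNγRKO clones (median 14034) and 6359.5 to 12922 CPM in control clones (median 9229). Of 34 CD8-IFNγRKO clones, 28 were above every control clone, and 99.5% of the pairs had the CD8-IFNγRKO clone higher. *Hsp90aa1*, an HSP90 chaperone, was at 573 to 1559.7 against 223 to 872 CPM, with a log2 ratio of 1.10. The HSP70 genes *Hspa1a* and *Hspa1b* had ratios of 2.07 and 2.11, with medians of 653 against 183 and 799 against 278 CPM. *Hspe1*, the mitochondrial HSP10, had 0.92, and *Dnaja1*, an HSP40, -0.04.

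DNA replication and division genes were higher as whole lists. In the S phase list, 36 of 36 measured genes had a ratio above 0 and 8 were at least 2-fold higher, with a median of 0.80. The clones summed to 974 to 5231 CPM (median 4038) in CD8-IFNγRKO and 822 to 4784 CPM (median 2156) in control. *Cdc6*, which loads the replicative helicase, had a ratio of 1.46, *Mcm2*, a subunit of that helicase, 1.18, *Ung*, which removes uracil from DNA, 1.32, and *Casp8ap2* the smallest, 0.15. *Mcm2* was at 0 to 163 CPM against 0 to 135 CPM. In the G2/M list, 43 of 43 genes were above 0 and none was at least 2-fold higher, with a median of 0.55 and, for example, *Aurkb*, a kinase of chromosome segregation, at 0.88 and *Tubb4b*, a tubulin, at 0.15. Depth went with the S phase list. Spearman's rho between the S phase sum and the median of UMIs per cell was 0.74 over the CD8-IFNγRKO and 0.76 over the control clones. Among clones of 5000 to 10000 UMIs the medians of the S phase and G2/M lists were 0.52 and 0.41. In that range the CD8-IFNγRKO clones were still mostly the deeper ones, and the part of depth in these ratios was not tested. C16, the deepest control clone, had an S phase sum of 4784 CPM, above the CD8-IFNγRKO median. The CDK inhibitors, which hold the cycle, had a median of -0.09 with 5 of 6 measured genes below 0, *Cdkn2a* at -0.60, *Cdkn2c* at -0.29 and *Cdkn1b* at -0.0039, and *Cdkn3* at 0.38.

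Sterol and fatty acid synthesis genes were higher too. All 14 measured genes were above 0, 5 of them at least 2-fold, with a median log2 ratio of 0.70 and 0.68 among clones of 5000 to 10000 UMIs. The summed level was 344 to 972 CPM against 219 to 635 CPM, and 22 of 34 CD8-IFNγRKO clones lay above every control clone. *Fdps*, which makes farnesyl diphosphate, was at medians of 76.2 and 22.6 CPM with a ratio of 1.47. *Cyp51* and *Idi1*, enzymes of the same route, had ratios of 1.36 and 1.33, the latter 0.70 among clones of 5000 to 10000 UMIs, and *Fdft1*, which commits the route to sterols, 0.37. Glycolysis and hypoxia genes were above 0 in 18 of 19 cases with none past 2-fold and a median of 0.43. *Tpi1*, *Pgam1* and *Mif* had ratios of 0.75, 0.70 and 0.69, *Slc2a1*, a glucose transporter, 0.56 and *Gpi1* 0.04. The integrated stress and amino acid list had a median of 0.46, which was 0.18 among clones of 5000 to 10000 UMIs, led by *Slc7a5*, a transporter of large amino acids, at 0.95 and *Phgdh*, the first enzyme of serine synthesis, at 0.85.

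Inhibitory receptors and transcription factors of exhausted T cells were lower as a list. Of 18 genes measured, 16 were below 0 and 2 at least 2-fold lower, with a median of -0.46. The summed level was 2344 to 5181 CPM (median 4189) in CD8-IFNγRKO against 3889 to 8126 CPM (median 6277) in control clones, and no CD8-IFNγRKO clone reached the control median. *Nr4a2* and *Nr4a3*, nuclear receptors induced by TCR signals, had ratios of -1.14 and -1.19. *Nr4a2* was at 57.3 to 353 against 163 to 665 CPM. *Bhlhe40*, a transcription factor, was at medians of 647 and 1166 CPM with a ratio of -0.96, and *Lag3*, an inhibitory receptor, at 524 and 932 CPM with -0.89. *Cd160* had the smallest ratio, -0.03, and the 2 members above 0 were *Tox*, which keeps the exhausted state, at 0.04, and *Prdm1*, the gene of BLIMP1, at 0.09, both named after their values were seen.

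Receptors shared with NK cells and genes of the TCR complex were lower as well. In the killer receptor list, 7 of 8 measured genes were below 0, 2 of them at least 2-fold, with a median of -0.57. *Klrd1* (CD94) was at medians of 653 and 1221 CPM with a ratio of -0.86, and *Klrc1* (NKG2A), its inhibitory partner, at 684 and 931 CPM with -0.58. The 2 past 2-fold, *Klra3* at -2.96 and *Klri2* at -1.54, had mean clone levels of at most 27.6 CPM, and among clones of 5000 to 10000 UMIs they were at -3.95 and -2.43. In the TCR signaling list, 17 of 21 genes were below 0, none past 2-fold, with a median of -0.27 and *Cd3e* at 1128 to 1707 against 1280.1 to 2267 CPM. The sort used CD3 and CD8 protein and the cell filter *Cd2*, *Cd8a* and *Cd8b1* in both genotypes. Costimulatory receptors had a median of -0.37, with *Icos* at -0.75, *Cd28* at -0.56 and *Tnfrsf9* (4-1BB) at 0.00099.

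**Figure D5:**
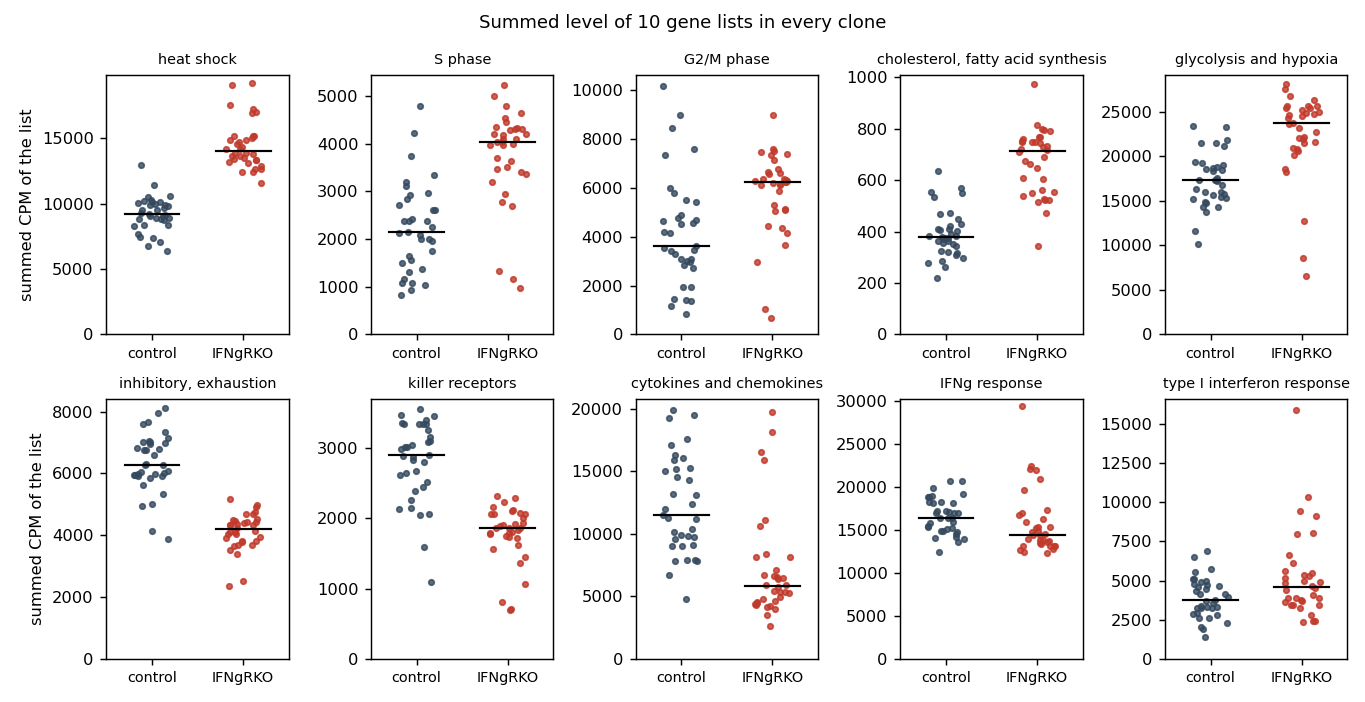
Summed CPM of 10 gene lists in every expanded clone, control clones in dark and CD8-IFNγRKO clones in red, with black lines at the medians and linear axes from 0. The heat shock sums of 28 of the 34 CD8-IFNγRKO clones lie above every control clone, and the inhibitory and exhaustion sums of all CD8-IFNγRKO clones lie below the control median of 6277 CPM.

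Cytokines and chemokines were mostly lower, with *Xcl1* the other way. The list summed to 2627 to 19747 CPM (median 5815) in CD8-IFNγRKO and 4794 to 19918 CPM (median 11519.8) in control clones. In 15.8% of the pairs the CD8-IFNγRKO clone had the higher sum. The largest member was *Ccl5*, a chemokine of effector T cells, at 1272 to 18452 CPM (median 3073) against 3200.3 to 16938 CPM (median 8884). Its log2 ratio was -0.97 over clone means and -1.63 over summed cells. Of 13 measured genes, 10 were below 0 and 3 above. Of these, 4 were at least 2-fold lower (*Csf1*, *Tnfsf11* at -1.96, *Spp1* and *Areg* at -1.76) and 1, *Xcl1*, at least 2-fold higher. *Areg*, an EGF receptor ligand, was named after its value was seen. *Ccl4* had a ratio of 0.02, and *Ifng*, the ligand of the deleted receptor and also named after its value was seen, -0.07, with 138 to 1058 against 44.7 to 789.6 CPM. The granule list held both directions, with a summed level of 13171 CPM against 12871 CPM at the medians and a ratio of 0.07 for *Lamp1*. *Gzmb*, the most abundant granzyme here, was at medians of 4785 and 3044 CPM with a ratio of 0.64.

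The IFNγ response list hardly differed at the median of its genes, while its sums leaned lower in the CD8-IFNγRKO clones. Of 35 genes measured, 15 were above and 20 below 0, with a median of -0.04, and only *Ifitm1*, described above, passed 2-fold. The summed level was 12296 to 29341 CPM (median 14418) in CD8-IFNγRKO and 12354 to 20664 CPM (median 16394) in control clones. In 32.1% of the pairs the CD8-IFNγRKO clone was higher. Of 34 CD8-IFNγRKO clones, 9 were above the control median, and 30 of 35 control clones were above the CD8-IFNγRKO median. Spearman's rho between this sum and the median of UMIs per cell was -0.70 over the CD8-IFNγRKO and -0.78 over the control clones. *Bst2* (tetherin) had a ratio of 0.72, and *Tap2*, the peptide transporter, -0.004. *Ifitm2* and *Ifitm3* had ratios of -0.72 and -0.85, but among clones of 5000 to 10000 UMIs *Ifitm2* had the opposite sign, 0.22, and *Ifitm3* was at -0.09. K29 with 29341, K8 with 22419.7, K31 with 22005, K30 with 21885 and K14 with 20861 CPM were the 5 clones above every control clone, and these are again the 5 shallow CD8-IFNγRKO clones. The type I interferon list had a median of 0.42 with 19 of 20 genes above 0. Its 3 genes past 2-fold were *Ifit3*, *Ifit3b* and *Oas3*. K29 had 912 and K31 586 CPM of *Ifit3*, from 31 and 9 UMIs, and *Oas3* did not reach 2-fold without K30. Over summed cells the ratios of *Ifit3* and *Ifit3b* were -0.058 and -0.39, among clones of 5000 to 10000 UMIs 0.09 and 0.11, and with the largest clone of each β chain 1.38 and 1.70. In the receptor and signaling list, *Ifngr1* alone passed 2-fold, *Stat2* was at 0.71, the feedback inhibitors *Socs1* and *Cish* at -0.41 and -0.46, and *Jak1* at -0.02.

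Markers of stem-like and naive T cells were low in nearly all expanded clones and high in a few. *Tcf7*, the transcription factor TCF1 of stem-like cells, was at 0 in 5 of 34 CD8-IFNγRKO and 18 of 35 control clones, and its medians were 4.09 and 0 CPM. Control clones mostly held fewer UMIs than CD8-IFNγRKO clones of the same rank, and 0 means less in a small clone. For example, 3 UMIs are 15.8 CPM in C20 and 4.94 CPM in K20. K30 at 573 CPM from 10 UMIs and K31 at 260.4 CPM from 4 UMIs led the CD8-IFNγRKO clones, and C31 at 358 CPM from 16 UMIs the control clones. The *Tcf7* ratio was 0.73 and depended on the clones taken. It was -0.77 over clones of at least 20 barcodes and -0.03 over summed cells, but 2.02 among clones of 5000 to 10000 UMIs and 2.35 over clone medians. The 2.35 rests on the control median of 0. *Klf2* and *Klf3*, transcription factors of resting and recirculating T cells, were highest in the same K30 and K31, at 1948 and 1888 CPM for *Klf2*, with ratios of 0.99 and 2.62 over clone means and 0.28 and 1.02 over summed cells. The *Klf3* levels of K31, K30 and K29 rest on 6, 5 and 6 UMIs. *Bach2* had a ratio of -0.69, -0.01 among clones of 5000 to 10000 UMIs, and *Foxp1* of -0.01. The list's median was -0.23. Its sum reached 4927 CPM in K30 and 4753 in K31 against a CD8-IFNγRKO median of 987. Among control clones it reached 2529 CPM in C15 and 2391 in C31 against a median of 1161. In 37.2% of the pairs the CD8-IFNγRKO clone had the higher sum, and 26 of 35 control clones were above the CD8-IFNγRKO median. K30 and K31 also had the lowest *Gzmb* and G2/M levels of their library, with G2/M sums of 687 and 1042 CPM, and each rests on 7 cells with medians of 2545 and 2251 UMIs.

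In the remaining lists, immediate early genes, which respond within minutes to stimulation, had a median of -0.47 and -0.27 among clones of 5000 to 10000 UMIs. *Fosl2* was at -0.91, *Fosb* at -0.86, *Nr4a1* at -0.79 (-0.20 among clones of 5000 to 10000 UMIs) and *Zfp36* at 0.06, whereas *Myc* was higher as given above. The sums of K31 at 17708 CPM, C15 at 15271 and C14 at 15207 stood above the medians of 5146 and 7055. Chemokine receptors and adhesion genes had a median of -0.21, with the homing receptors *Ccr8* at -1.03, *Cxcr6* at -0.74 and *Cx3cr1* at -0.72, and the integrins *Itga4* at 0.66 and *Itgb1* at 0.04. Metallothioneins and galectins had a median of -0.28, with *Slc30a1*, a zinc exporter, at -0.87, *Lgals3* at -0.65, *S100a4* at -0.53 and *Lgals1* at -0.02.

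Some abundant genes had wide ranges among the clones of one library. The genes given here were chosen for their variance between clones over that of Poisson counting, which leaves in the spread between the cells of a clone. *Ccl5* led in CD8-IFNγRKO, where K29 at 18452, K8 at 16195 and K30 at 15239 CPM lay at the level of the highest control clones. *Gm42418*, a gene known to overlap ribosomal RNA, *Ly6c2*, a surface marker of effector and memory cells, *Fos* and *Gzmb* were the other most variable genes of CD8-IFNγRKO clones, and *Gzmf*, *Gm42418*, *Ccl5*, *Spp1* and *Ly6c2* those of control clones. *Ly6c2* ranged from 275 to 8417 CPM in CD8-IFNγRKO and from 722 to 5586 CPM in control clones. *Gzmb* ranged from 115 CPM in K30 to 10848 CPM in K22 and from 869 to 8040.3 CPM in control clones. K3 and K4 differed by a median of 0.08 (absolute log2 difference) over 813 genes of at least 200 CPM, K7 and K19 by 0.09, K9 and K16 by 0.09 and K13 and K18 by 0.13. K3 and K5, which share no chain, differed by 0.08 as well, K3 and K9, which share the β chain, by 0.14, and C14 and C15, of 108370 and 115054 UMIs, by 0.24. Over all 210 pairs of the 21 CD8-IFNγRKO clones with at least 500000 UMIs the median was 0.14 (0.04 to 0.44), over 21 pairs of 7 control clones 0.14, and over the 147 pairs between genotypes 0.23 (0.14 to 0.42). K14, which has the β chain of K16, was 0.33 from it, and its median depth was 3340 against 10108 UMIs per cell.

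Summing each clone on its own changed the size of some ratios. Of the 50 genes past 2-fold over clone means, 49 had the same sign over summed cells and 34 were also past 2-fold there. Of the 47 genes past 2-fold over summed cells, 13 did not reach it over clone means. Both measures use the same cells with other weights, so the shared signs lend no support. The share over all 3154 genes is not given. Of the 3154 genes, *Ifit3* moved most, from 1.16 over clone means to -0.058 over summed cells, then *1700097N02Rik*, a predicted gene, from -0.41 to -1.41, followed by *Gzmf*, *Serpinb1a* and *Nrn1*. For *Serpinb1a* the 2 values were -1.91 and -0.98. *Ifngr1*, *Hsp90aa1* and *Fdps* were close under both, with -1.68, 1.07 and 1.67 over summed cells.

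The same libraries hold paired cells of clones under 10 barcodes, 480 CD8-IFNγRKO and 365 control cells with a median of 4218 and 4365 UMIs per cell. They are given side by side, summed over cells, and the difference from the expanded clones was not tested. The expanded cells had medians of 10472 and 6311 UMIs, so the genotypes were close in depth only among the small clones. The S phase sum went with depth, as given above, but whether depth accounts for its ratios was not tested. *Ifngr1* had a log2 ratio of -1.21 there against -1.68 in the summed expanded cells. Of the 50 genes past 2-fold in expanded clones, 46 had the same sign and 21 were past 2-fold. The shares over all 3154 genes are not given beside these counts. Both sets of cells come from the same libraries and mice, so the counts lend no support. The list sums of the heat shock genes had ratios of 0.57 and 0.56, and those of the inhibitory and exhaustion genes -1.0 and -0.61, clones under 10 before expanded clones. For the S phase list they were 0.10 and 0.74, for sterol and fatty acid synthesis 0.26 and 0.87, and for glycolysis and hypoxia -0.06 and 0.44. The sums of the stem-like and naive list had opposite signs, at 0.72 and -0.26 in the same order. *Gzma* was at -0.79 in the small clones and 2.35 in the expanded ones, and *Gzmb* at -0.47 and 0.57.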

How the data were processed

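Deposited, unnormalized UMI counts per gene and barcode of the 2 tumor RNA libraries, and the deposited contigs with UMI counts of the 2 tumor TCR libraries, were used. The authors made them with Cell Ranger 6.0.0, per the file headers, on mm10 with 32285 genes, and kept productive, full-length contigs. 1 library of 3 pooled mice stood for each genotype, so depth (2251 to 14776.5 and 2093 to 13831 median UMIs per cell of a clone) sets the counting error and nothing sets the error between mice.

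The cell filter asked for 200 to 6000 genes, for *Cd2*, *Cd8a* and *Cd8b1* with 1 UMI or more each, for mitochondrial UMIs of 3% or less and for no gene over 20% of the UMIs. Doublets were not called, since the study's methods name no such step. Clone sums, their CPM and log2 ratios (1 CPM added) and exact intervals at 95% (Clopper-Pearson for shares, Poisson for levels) came from scripts in Python 3.11.15 with pandas 2.3.3, numpy 2.4.6, scipy 1.17.1 and matplotlib 3.10.9. The ratios were checked on simulated data in which the clones of a genotype differed by depth and Poisson counting alone. That check does not cover the wider spread between real clones. No test or p-value was computed. Named genes were the 12 highest and 12 lowest ratios (mitochondrial, ribosomal protein and sex-linked genes left out), up to 4 largest and the smallest of each list, the 5 most one-sided in each direction, the 5 with the largest gap between summed and clone-mean ratios and the 5 most variable of each library. A gene outside these is marked. Members and lists were chosen with earlier results of these data known. Other clone limits, cell filters, scalings and gene minimums were tried as alternatives. Lymph node counts served only to find shared barcodes.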

Additional observations from a re-analysis of the deposited data

How the results depend on the processing

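No paired analysis was possible because each genotype is 1 library of pooled mice. Over 19 alternatives, of which 4 were chosen after the data were seen, the *Ifngr1* log2 ratio stayed between -1.79 and -1.43. It was -1.46 with clones of at least 5 barcodes, -1.64 with at least 20, -1.44 with clones by β chain alone, -1.54 with barcodes of 1 contig per chain, -1.65 with sizes counted after the cell filter, -1.68 over summed cells, -1.79 over clone medians, -1.46 with clones that have Y-linked UMIs, -1.58 and -1.45 with clones of at least 5000 and of 5000 to 10000 UMIs per cell, and -1.43 with the largest clone of each β chain. The expanded shares of CD8-IFNγRKO and control were 88.0% and 90.7% at 5 barcodes, 85.1% and 84.0% at 20, and 91.2% and 91.1% of kept cells with sizes counted after the filter, and the first was 85.5% with 1 contig per chain. Genes at least 2-fold higher numbered 51 over clone medians, 17 with 10 CPM added, and 16 and 17 in clones of at least 5000 and of 5000 to 10000 UMIs. With a minimum of 20 CPM, 200 CPM or none, 66, 7 and 203 were higher and 59, 8 and 188 lower, as fewer or more genes were counted. The cause of the other shifts was not tested. *Ifit3b* was reversed at 20 barcodes (-0.20), after the filter (-0.23), over summed cells (-0.39) and over clone medians (-0.36), *Ifit3* over summed cells (-0.058) and clone medians (-0.32), and *Ifitm1* over clone medians (1.94). Of 20 list medians, 16 kept their sign under all 19 alternatives, and the IFNγ response, stem-like, adhesion and CDK inhibitor lists did not. Clones with *Xist* above the Y-linked genes were 0 in both libraries, so that setting gave no value.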

Other observations

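Y-linked transcripts set 1 control clone apart. The summed UMIs of *Ddx3y*, *Eif2s3y*, *Uty* and *Kdm5d* were above 0 in all 34 CD8-IFNγRKO clones, at 47.9 to 286 CPM, and in 33 of 35 control clones, at 65.8 to 313 CPM. They were 0 in C14 and C15, which are the 2 α chains of the clone with the β chain printed above, over 65 cells and 223424 UMIs, where the rate of the whole control sum would give 31.1 UMIs. A count of 0 there allows up to 13.4 CPM. Single genes of the sum were absent or nearly so in other clones too. *Uty* had 1 UMI in C2 and 3 in C3, against 119 in C1. K6 had 0 UMIs of *Ddx3y* beside 157 of *Eif2s3y*, and K24 had 0 of *Eif2s3y* beside 7 of *Ddx3y*. *Xist*, the RNA of the inactive X chromosome, had 0 UMIs in the expanded cells of both libraries, C14 and C15 included. The same 2 members had the highest *Serpinb1a* of all clones, immediate early sums of 15207 and 15271 CPM, *Ifngr1* at 1199.6 and 1338 CPM and S phase sums of 1559 and 1034 CPM. Without them, 22 genes were at least 2-fold higher and 19 lower.

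Ribosomal protein genes went both ways among the most one-sided genes, but more of them were lower in the CD8-IFNγRKO clones. *Rpl39*, *Rps15a* and *Rpl37a* were higher in the CD8-IFNγRKO clone in 2.18%, 4.12% and 4.62% of the pairs, with log2 ratios of -0.40, -0.44 and -0.45, whereas *Rps12* and *Rplp1* were higher in 94.8% and 94.0%, at 0.40 and 0.36. *Rpl38*, *Rps29*, *Rps28*, *Rpl37* and *Rpl30* were also higher in at most 10% of the pairs. No ribosomal protein gene other than *Rps12* and *Rplp1* was higher in at least 90%. Over all 3154 genes, 31 were at 10% or less and 18 at 90% or more, so lower genes were also the more common among all one-sided genes. The number of ribosomal protein genes measured is not given. These genes lay outside the naming rule and were chosen after their values were seen.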
